A study of Mus musculus with 12 samples.

Results

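Gene expression was profiled in astrocytes from the uninjured hemisphere of wild-type mice, in 3 libraries, 1 each from mice 296, 297 and 474, out of 12 libraries in the series. They are the libraries titled as wild-type and contralateral, and no measured value entered their choice. The series sequenced 1 library from each hemisphere of 6 mice, in 4 groups of 3, 24 h after tMCAO, a stroke model made by blocking and later reopening the middle cerebral artery on 1 side of the brain. The 3 mice were C57BL/6, aged 90 to 120 days after birth, and carried Gfap-CreERT2+/-, a Cre recombinase under the promoter of the astrocyte gene Gfap that needs tamoxifen to act, together with homozygous floxed alleles. They received corn oil, the solvent of tamoxifen, and the labels call them wild-type. The contralateral hemisphere lay opposite the occlusion, so these cells came from a brain with a stroke and not from an unoperated mouse. Only these 3 libraries were used, and no group was set against another.

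Astrocytes are the glia that clear glutamate and potassium after neurons fire, turn glutamate into glutamine, store glycogen and supply cholesterol and apolipoproteins to other brain cells. Their endfeet line the blood vessels, and gap junctions join them into a network. ACSA-2, the antigen used to select the cells after enzymatic dissociation of the brain, is an epitope of ATP1B2, the beta subunit of the sodium pump most typical of astrocytes.

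Levels are the deposited TPM, a measure of transcript abundance, which are scaled for gene length and sum to the same total in every library, so that genes may be set beside each other. The 3 values in a row are those of mice 296, 297 and 474 in that order, and means carry the SD over these 3 libraries (n = 3). The deposited counts of reads are given beside the TPM of the main genes. For some genes the counts held far fewer reads than the TPM imply. The ratio of the 2, with the median gene set at 1, is called the count share here and is given at the first mention of each gene where it was under 0.6. It was under 0.6 for 11.3% of 11833 genes with at least 50 counts in every library and between 0.8 and 1.25 for 78.3%, and a gene model that differs from the annotation used would also lower it. The cause was not tested.

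The libraries held 11935558, 12554526 and 12516804 counts, and 18661, 18728 and 18292 of 48709 genes had at least 1 count. A floor of 3 counts corresponded to 0.239 to 0.251 CPM (counts scaled to a common library total), for counting error only. At 1 TPM or more in all 3 libraries there were 14400 genes, and 1785 genes had a mean of at least 100 TPM. Genes at 10 TPM or more numbered 10521, 10831 and 10383 in the single libraries, and genes at 100 TPM or more 1833, 1828 and 1738. The gene lists read below were chosen with earlier results of these data known. The number of their members above a threshold therefore describes the chosen genes and is no test of a family. The library of mouse 296 stood apart from the other two. Over 15522 genes with a mean of at least 1 TPM, 96.4% of genes lay within 2-fold between mice 297 and 474, against 89.0% and 88.1% between mouse 296 and mice 297 and 474. The median gene had an SD between libraries of 0.26 on the log2(TPM + 1) scale. With 1 mouse left out it was 0.17 without mouse 296, 0.25 without mouse 297 and 0.22 without mouse 474. Mouse 296 also had 2733 counts over 4 Y-linked genes and 8 counts of Xist, the RNA of the inactive X chromosome, where mice 297 and 474 had 0 and 0 counts of those genes and 20482 and 15380 counts of Xist. The labels give no sex, but by these counts mouse 296 was male and mice 297 and 474 were female. Where mouse 296 is described as highest or lowest, sex therefore cannot be told apart from other traits of that mouse.

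The label was first set against 30 astrocyte marker genes. All 30 were at 100 TPM or more in every library, and together they took 5.28, 5.38 and 6.76% of all TPM (5.81 ± 0.829%) and 5.16, 5.12 and 6.66% of counts. Abundant members weigh most in this sum. Apoe alone made up 15.5% of it, and the median member had a mean of 1038 TPM. The shares of marker lists are therefore not shares of cells, and purity was not measured. The RNA is from bulk cell suspensions, so fewer cells of a type and less RNA per cell cannot be told apart. Atp1b2, which carries the antigen used for selection, had 1699.7, 2028 and 2401 TPM, on 25187, 30994 and 38590 counts. Slc1a2 and Slc1a3, the glutamate transporters GLT-1 and GLAST, had 1547, 1382 and 1705 TPM for Slc1a2 and 756, 1042 and 1214 TPM for Slc1a3. Aldh1l1, a folate enzyme used to mark astrocytes throughout the brain, had 288, 206 and 229 TPM, and Aqp4, the water channel of the endfeet, had 152, 279 and 296 TPM. Gfap, the intermediate filament of fibrous and reactive astrocytes, had 854, 1115 and 771 TPM. The 30 markers had means from 148 to 8978 TPM, all above the median gene, which lay between 22.8 and 25.2 TPM over the 14400 genes. Mouse 474 held the highest value for 23 of the 30 markers, mouse 296 for 6 and mouse 297 for 1. Over all 14400 genes the highest value fell in mouse 296 for 39.4%, in mouse 297 for 36.6% and in mouse 474 for 24% of genes.

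The most abundant genes held a sizeable part of the RNA. The top 25 genes took 15.5, 15.3 and 17.1% of all TPM and the top 1000 took 54.6, 54.2 and 57.2%. Transcripts of the mitochondrial genome took 6.12, 6.35 and 7.02% of TPM but 1.01, 1.08 and 1.17% of counts, and ribosomal protein genes took 3.598, 2.91 and 2.97% of TPM. Besides these, Ttr, the thyroxine carrier made by choroid plexus, led with 10139.7, 15708 and 18431 TPM, on 44837, 71644 and 88396 counts. Fth1, the ferritin heavy chain that stores iron, had 10936, 13455 and 14659 TPM (count share 0.25), on 34247, 43486 and 49800 counts. Apoe, the main lipid carrier made by astrocytes, had 8703, 8063 and 10169 TPM, on 63204, 60395 and 80101 counts. Ptgds, a prostaglandin synthase of glia and meninges, had 7431, 8739 and 7925 TPM, on 44449, 53920 and 51417 counts, and Cst3, the secreted protease inhibitor cystatin C, had 6344, 6406 and 8814 TPM, on 29133, 30346 and 43901 counts. Glul, the glutamine synthetase, had 6280.0, 4765 and 5661 TPM, on 74667, 58457 and 72995 counts, Ckb, the brain creatine kinase, had 4718, 4909 and 5861 TPM (count share 0.49), and Sparcl1, a matrix protein that promotes synapses, had 4638, 4848 and 5397 TPM. Mouse 474 was highest for Ttr, Fth1, Apoe, Cst3, Ckb and Sparcl1, mouse 297 for Ptgds and mouse 296 for Glul.

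**Figure D1:**
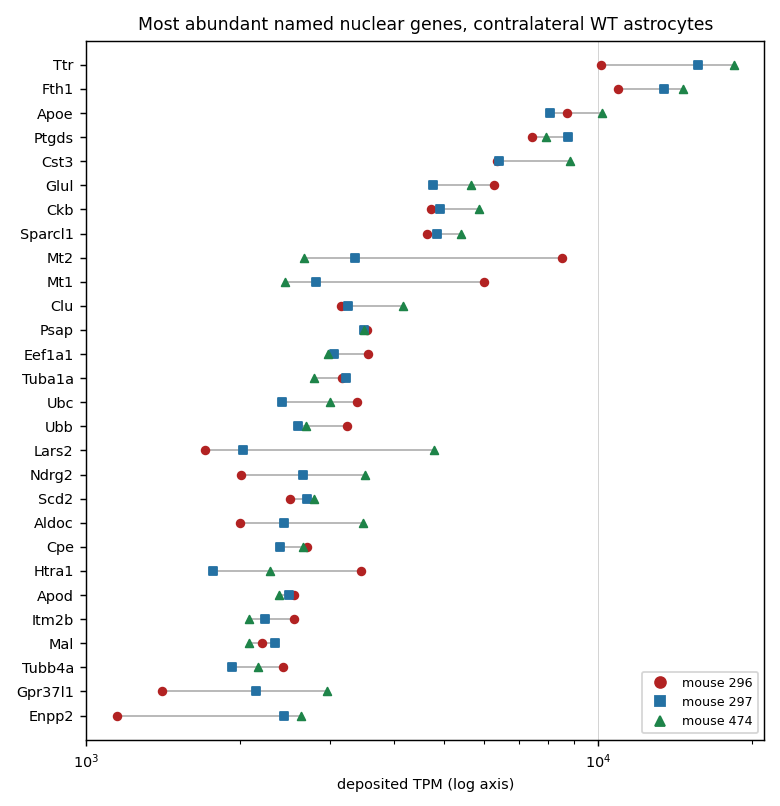
TPM on a log axis of the named nuclear genes with the highest mean, a few of which are not shown, with 1 point per library (circle, mouse 296; square, mouse 297; triangle, mouse 474) joined by a line. Most genes had their 3 points close together, while Mt1 and Mt2 were highest in mouse 296 and Ttr and Lars2 in mouse 474.

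Further down the first 30 stood Clu, the secreted chaperone clusterin, with 3139.9, 3253 and 4166 TPM, and Psap, a precursor of lysosomal lipid cofactors, with 3533, 3483 and 3493 TPM. Ndrg2, a cytoplasmic protein typical of astrocytes, had 2006, 2657 and 3505 TPM, and Cpe, an enzyme that trims peptide hormones, had 2699, 2387 and 2655 TPM. Psap was nearly level across the mice, whereas Ndrg2 was lowest in mouse 296 and highest in mouse 474. The serine protease Htra1 ran the other way, with 3445, 1771 and 2289 TPM, and was highest in mouse 296. Lars2, the mitochondrial leucyl-tRNA synthetase, had 1703, 2028 and 4774 TPM (count share 0.32), on 21604, 26572 and 65647 counts, and stood out in mouse 474. Its counts held fewer reads than its TPM imply, so its level is uncertain. What part of these reads stems from Lars2 mRNA was not tested. Mal, of oligodendrocyte myelin, was among the first 30 as well and is described with that cell type.

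Metallothioneins, small proteins that bind zinc and copper, stood among these genes. Mt2 had 8508, 3355 and 2669 TPM, on 18148, 7382 and 6175 counts, and Mt1 had 5995, 2807 and 2446 TPM, on 27098, 13084 and 11993 counts. Mt3, the brain form, had 1123, 1435 and 1753 TPM, on 4342, 5725 and 7353 counts. Mouse 296 held the highest Mt1 and Mt2 but the lowest Mt3, so that Mt2 was 7.58, 2.34 and 1.52 times Mt3. Mt1 was below Mt2 in every library, at 0.819 ± 0.107 of its level. The 3 genes lie beside each other on chromosome 8. Their promoters, taken from 250 bases before to 50 after the gene start in RefSeq (GRCm38.p6, mm10), are shown because metal response elements are the known route by which zinc acts on Mt1 and Mt2. Capitals mark the core letters TGCACNC or TGCGCNC, searched on both strands, in Mt1 at chr8:94178839-94179138, Mt2 at chr8:94172368-94172667 and Mt3 at chr8:94152357-94152656, all on the plus strand.
Mt1: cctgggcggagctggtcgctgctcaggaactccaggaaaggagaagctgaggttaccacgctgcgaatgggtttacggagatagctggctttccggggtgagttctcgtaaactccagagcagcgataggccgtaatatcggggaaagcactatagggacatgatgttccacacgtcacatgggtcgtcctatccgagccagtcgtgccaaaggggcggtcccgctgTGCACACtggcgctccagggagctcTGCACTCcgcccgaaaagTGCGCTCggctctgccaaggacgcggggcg
Mt2: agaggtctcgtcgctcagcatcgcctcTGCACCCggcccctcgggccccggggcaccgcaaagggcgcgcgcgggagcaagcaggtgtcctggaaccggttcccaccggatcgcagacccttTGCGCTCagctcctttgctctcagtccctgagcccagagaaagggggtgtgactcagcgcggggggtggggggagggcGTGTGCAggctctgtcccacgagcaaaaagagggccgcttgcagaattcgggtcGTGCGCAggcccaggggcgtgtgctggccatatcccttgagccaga
Mt3: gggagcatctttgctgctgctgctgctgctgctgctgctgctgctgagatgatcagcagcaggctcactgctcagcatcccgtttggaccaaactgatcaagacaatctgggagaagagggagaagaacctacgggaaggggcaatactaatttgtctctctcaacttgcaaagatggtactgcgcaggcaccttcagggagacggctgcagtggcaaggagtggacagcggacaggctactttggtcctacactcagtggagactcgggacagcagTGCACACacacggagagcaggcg
The core matched 3 times in the Mt1 window, 4 times in that of Mt2 and 1 time in that of Mt3. Some matches in Mt1 and Mt2, and the only match in Mt3, lie in the 50 bases after the gene start used. The numbers therefore describe these windows and not the whole promoter of each gene. Of 32851 promoters of the same length, 25.7% held at least 1 match, 1.97% at least 3 and 0.517% at least 4. A match is a description of these letters and not evidence of binding.

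Transporters of amino acids and GABA were abundant as a group. All 22 were at 1 TPM or more in every library, 13 of them at 100 TPM or more, and the list took 0.7996 ± 0.0701% of TPM, with a median member at 175 TPM. Slc1a2 stood above Slc1a3 in every library, at 2.05, 1.33 and 1.405 times its TPM. Slc6a11, the GABA transporter GAT-3 of astrocytes, had 1142, 1563 and 1688 TPM and was lowest in mouse 296. Slc7a10, which moves serine and glycine, had 276, 480.5 and 708 TPM and was lowest in mouse 296. The glutamine carrier Slc38a3 had 248, 385 and 559 TPM, and Slc38a2 had 395, 308 and 344 TPM (count share 0.52). Slc3a2, the heavy chain shared by several amino acid exchangers, had 476, 351 and 373 TPM. Slc38a3, which releases glutamine, was lowest in mouse 296, and Slc3a2 was highest there.

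Among the beta subunits of the sodium pump Atp1b2 stood at 11.7, 11.7 and 11.1 times Atp1b1, a ratio of 11.5 ± 0.339 that varied little between mice. Atp1b1 itself had 145, 173 and 216 TPM, Atp1b3 had 279, 310.5 and 328 TPM, and the pump regulator Fxyd1 had 139, 164 and 209 TPM. All 10 listed subunits together took 0.536, 0.6098 and 0.739% of TPM.

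Of 17 potassium channel genes, 2 were at 100 TPM or more in every library. Kcnj10, the inward rectifier Kir4.1 that buffers potassium, had 443, 489.9 and 582 TPM, on 8688, 9911 and 12373 counts, and Kcnk1, the leak channel TWIK-1, had 449, 305 and 453 TPM. Kcnj10 stood at 0.986, 1.61 and 1.28 times Kcnk1, which put them level in mouse 296 and Kcnj10 above in mice 297 and 474. Kcnj16, the Kir5.1 subunit that pairs with Kcnj10, had 36.3, 72.996 and 105 TPM, and Kcnj10 stood at 12.2, 6.71 and 5.55 times it. Kcnip3 had 59.6, 90.6 and 113 TPM and Kcnn2, a calcium-activated channel, had 68.2, 50.7 and 68.6 TPM.

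The list of water, gap junction and anion channels was led by Gja1, connexin 43, with 784, 1204 and 1409 TPM (count share 0.31), on 8828, 13992 and 17211 counts. Gjb6, connexin 30, had 1092, 830.2 and 969.8 TPM, on 8984, 7048 and 8658 counts. Gja1 stood at 0.718, 1.45 and 1.45 times Gjb6, so that connexin 30 was the higher in mouse 296 and connexin 43 in the other two. The counts of Gja1 held fewer reads than its TPM imply, so this order is given for the TPM alone. Ttyh1, a tweety family channel protein, had 1054, 986 and 1178 TPM, with Ttyh3 at 571, 479 and 541 TPM and Ttyh2 at 295, 311 and 276 TPM. Lrrc8a, the obligatory subunit of the volume-regulated anion channel, had 207, 129.8 and 123 TPM (count share 0.054) but 172, 128 and 98 counts, and its level therefore rests on reads that the counts do not hold. Best2, a bestrophin, was listed at 0 in all libraries.

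Slc2a1, the glucose transporter GLUT1 of endothelium and astrocytes, had 1411, 1339 and 877 TPM, on 17949, 17563 and 12101 counts and was lowest in mouse 474. It was 76.0% of the summed TPM of 16 glucose and monocarboxylate transporters. Endothelial markers were present in these libraries, at 0.212, 0.2698 and 0.176% of TPM, and also lowest in mouse 474, and their part in the Slc2a1 level was not tested. The lactate carrier Slc16a1, MCT1, had 69.6, 96.7 and 92.6 TPM, which was 17.9, 31.6 and 41.2 times Slc16a3, MCT4, at 3.89, 3.07 and 2.25 TPM. Slc2a4, the insulin-sensitive GLUT4, had 118, 25.2 and 21.9 TPM and was highest in mouse 296.

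Among acid, bicarbonate, chloride and calcium transporters the calcium pump of the endoplasmic reticulum Atp2a2 had 403, 434 and 389 TPM. Slc4a4, the sodium bicarbonate cotransporter NBCe1 of astrocytes, had 149, 218 and 222 TPM, and the anion exchanger Slc4a2 had 108, 144 and 117 TPM. Slc12a2, the cotransporter NKCC1 that loads cells with chloride, had 157, 168 and 137 TPM (count share 0.599), and Slc12a4, a potassium chloride exporter, had 105, 114 and 147 TPM. The neuronal exporter Slc12a5 was at 2.96, 1.29 and 1.64 TPM.

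Mfsd2a, a lipid transporter best known from brain endothelium, had 922, 422 and 444 TPM and was highest in mouse 296. Slc25a18, a mitochondrial glutamate carrier, had 331, 507 and 648 TPM, and Slc27a1, a fatty acid carrier, had 351, 465 and 606 TPM. Slc39a12, a zinc importer, had 322, 388 and 484 TPM, and Slco1c1, a thyroxine transporter of astrocytes and vessels, had 173, 412 and 478 TPM. These last 4 genes were all lowest in mouse 296 and highest in mouse 474.

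**Figure D2:**
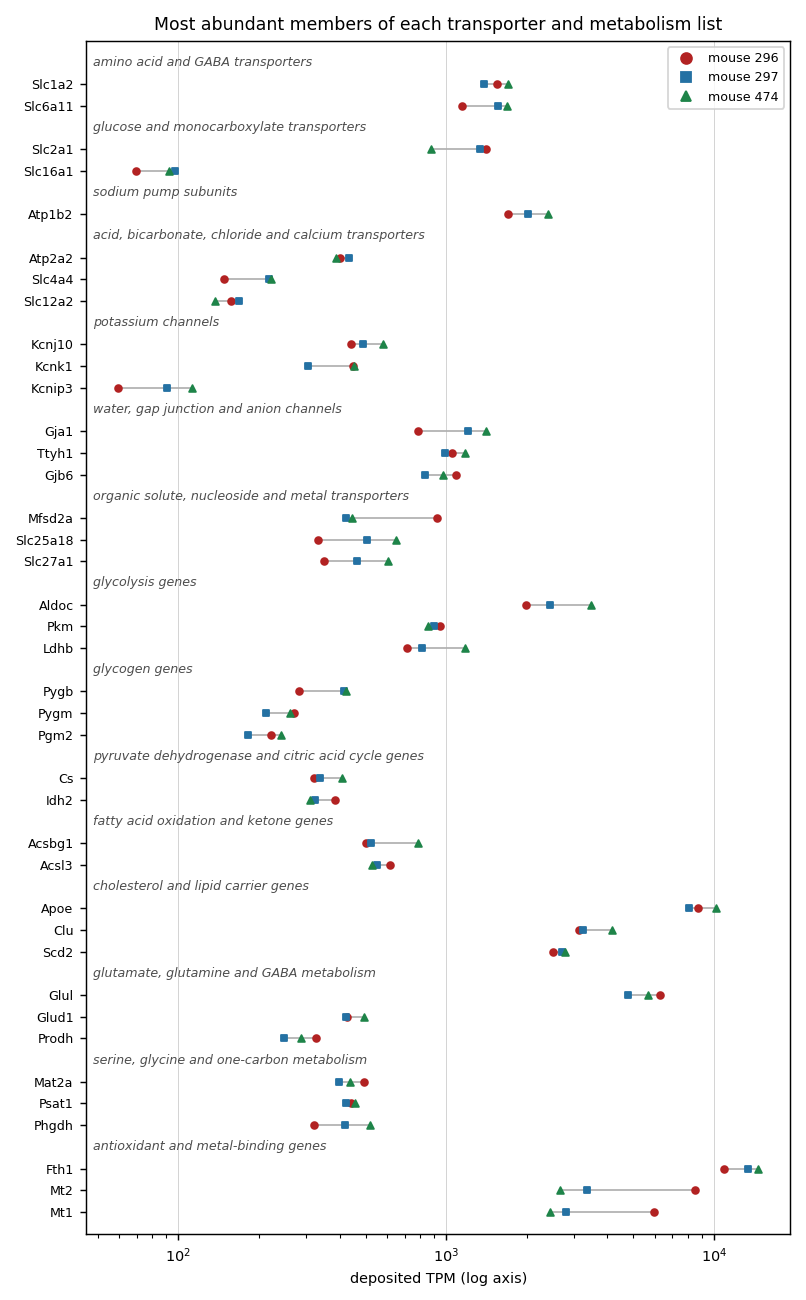
TPM on a log axis of up to 3 members with the highest mean in each transporter and metabolism list, a few of which are not shown, with 1 point per library (circle, mouse 296; square, mouse 297; triangle, mouse 474). The 3 libraries gave the same order of magnitude for each gene, and Gja1 and Gjb6 exchanged places in mouse 296.

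All 22 listed glycolysis genes were at 1 TPM or more in every library and 13 at 100 TPM or more. Aldoc, the brain aldolase and an astrocyte marker, had 1995, 2435 and 3480.1 TPM, on 23613, 29728 and 44678 counts, which was 4.72 ± 0.487 times Aldoa. Ldhb, the lactate dehydrogenase subunit of oxidative tissues, had 717, 812 and 1175 TPM, 5.74 ± 1.26 times Ldha at 159, 143 and 167 TPM. Pfkm, the muscle form of phosphofructokinase, had 412, 423 and 589 TPM and was 5.85 ± 1.34 times Pfkp. Pkm, pyruvate kinase, had 951, 899 and 858 TPM (count share 0.52), Gapdh had 467, 475 and 618 TPM (count share 0.36), and Pgk1 had 381, 412 and 493 TPM. The order within each of the 3 enzyme pairs was the same in all 3 mice. Mouse 474 had the highest value for 12 of the 22 genes, against 24% of all 14400 genes at 1 TPM or more.

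Glycogen is stored mainly in astrocytes in the adult brain. Of the glycogen phosphorylases, Pygb, the brain form, had 282, 417 and 424 TPM and Pygm, the muscle form, had 269, 212 and 261 TPM, a ratio of 1.05, 1.96 and 1.62. Both were thus present at like levels in mouse 296, while Pygb was the higher in mice 297 and 474. Ppp1r3c, a subunit that draws phosphatase to glycogen, had 172, 121 and 147 TPM, and the synthase Gys1 had 23.5, 34.4 and 43.2 TPM. Phkg1, a subunit of phosphorylase kinase, had 80.01, 152 and 195 TPM (count share 0.50). The liver synthase Gys2 was at 0.726, 0.201 and 0 TPM.

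All 26 genes of pyruvate dehydrogenase and the citric acid cycle were at 10 TPM or more in every library, with 16 at 100 TPM or more. Idh2, an isocitrate dehydrogenase, had 385, 324 and 310.3 TPM, and the citrate synthase Cs had 320.3, 337 and 408 TPM (count share 0.49). Mdh1 had 299, 306 and 387 TPM and Sdha, of succinate dehydrogenase, had 239, 279.7 and 281 TPM. The list took 0.398, 0.398 and 0.456% of TPM. Genes of fatty acid oxidation and ketone use took 0.363, 0.379 and 0.421%, and 29 of 32 were at 10 TPM or more in every library. Acsbg1, an acyl-CoA synthetase of astrocytes, had 504, 524 and 788 TPM, and Acsl3 had 618, 552 and 529.7 TPM. Cpt1a, the gate for fatty acid entry into mitochondria, had 234, 190.3 and 178 TPM (count share 0.56). The regulator Pparg was at 0.373, 0.272 and 0.4304 TPM.

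Lipid synthesis and transport took 2.05, 2.02 and 2.35% of TPM, of which Apoe made up 41.9%. Scd2, a stearoyl-CoA desaturase, had 2502, 2703 and 2781 TPM, and Apod, an apolipoprotein also made by oligodendrocytes, had 2542, 2491 and 2385 TPM. Fads2, a fatty acid desaturase, had 335, 614 and 721 TPM (count share 0.46). Srebf1, the regulator of fatty acid synthesis, had 376, 363 and 384 TPM, and Elovl5, a fatty acid elongase, had 313, 249 and 343 TPM. Scd2, Apod and Srebf1 differed little between the mice, and Fads2 was lowest in mouse 296.

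In glutamate metabolism Glul made up 76.5% of the summed TPM of 18 genes. Glud1, glutamate dehydrogenase, had 425, 423 and 491 TPM, and Prodh, of proline breakdown, had 327, 248 and 286 TPM (count share 0.45). The GABA-making enzymes of neurons Gad1 and Gad2 were at 2.201, 1.75 and 0.965 TPM for Gad1 and 1.03, 0.637 and 0.865 TPM for Gad2, while Abat, which breaks GABA down, had 122, 145 and 149 TPM. Serine synthesis was represented by Psat1 with 442, 424 and 456 TPM and Phgdh with 321, 417 and 518 TPM. Mat2a, which makes S-adenosylmethionine, had 495, 399 and 438 TPM, and Cbs, cystathionine beta-synthase, had 394, 325 and 352 TPM (count share 0.45).

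Of 32 antioxidant and metal-binding genes, 18 were at 100 TPM or more and all at 10 TPM or more in every library. Gstm1 and Gstm5, glutathione transferases, had 1542, 1718 and 2129.6 TPM for Gstm1 and 1053, 790.1 and 1202 TPM for Gstm5, and Gstp1 had 996, 1439 and 1673 TPM (count share 0.36). Sod1, the cytosolic superoxide dismutase, had 1155, 1104 and 1152 TPM (count share 0.16) but only 2700, 2667 and 2923 counts. Ftl1, the ferritin light chain, had 1340.1, 826 and 864 TPM. Sod1 was level across the mice, and Ftl1 was highest in mouse 296 where Fth1 was lowest. Fth1 has processed pseudogene copies in the genome, and how the authors' counting treated reads that fit more than 1 place is not given in the sources used here.

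Over the 12 receptor lists the median member lay at 0.483 to 59.8 TPM. Among metabotropic glutamate receptors Grm3, which couples to Gi proteins, had 79.4, 184 and 243 TPM, on 878, 2098 and 2916 counts and made up 94.4% of the list's TPM. Grm5, the receptor of young astrocytes, had 0.511, 0.756 and 0.496 TPM, so Grm3 stood at 155, 243 and 490.0 times it. Grm7 had 6.32, 7.76 and 5.18 TPM and Grm4 had 1.296, 2.61 and 3.25 TPM, and the other 4 of the 8 were under 1 TPM in every library. Grm6, the receptor of retinal bipolar cells, was at 0, 0.0493 and 0 TPM. Grm3 was lowest in mouse 296.

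Of ionotropic glutamate receptors Grin2c, an NMDA receptor subunit found in astrocytes, was first, with 331, 323 and 453 TPM. Grin1, the subunit that every NMDA receptor needs, had 1.25, 0.551 and 0.472 TPM, on 44, 20 and 18 counts. The kainate subunit Grik5 had 75.3, 69.7 and 84.2 TPM, and the AMPA subunits Gria2 and Gria1 had 43.3, 56.3 and 60.1 TPM for Gria2 and 38.2, 66.5 and 52.4 TPM for Gria1. For GABA, the metabotropic subunit Gabbr1 had 162, 203 and 227 TPM and its partner Gabbr2 had 50.3, 110.1 and 101 TPM. Gabrb1 and Gabrg1, subunits of GABA-A receptors, had 20.02, 41.97 and 48.9 TPM for Gabrb1 and 24.7, 31.5 and 40.1 TPM for Gabrg1. Gabra6, the subunit of cerebellar granule cells, was listed at 0 in every library.

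Adenosine receptors were led by Adora1, which couples to Gi proteins, with 114, 118 and 105 TPM. Adora2b had 42.3, 48.4 and 92.3 TPM and was highest in mouse 474, and Adora2a had 11.4, 11.5 and 10.6 TPM, so that Adora1 stood at 10.1 ± 0.217 times Adora2a. The ATP receptors P2rx7 and P2rx4 had 29.1, 35.4 and 28.3 TPM for P2rx7 and 19.4, 35.4 and 38.4 TPM (count share 0.48) for P2rx4, and P2ry12, which marks microglia, had 13.6, 26.6 and 23.4 TPM. P2ry1, the ADP receptor studied in astrocyte calcium signals, had 7.58, 9.47 and 9.06 TPM.

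All 9 adrenergic receptors were below 100 TPM. Adra2a had 11.2, 18.6 and 19.7 TPM and Adrb1 12.6, 12.6 and 16.9 TPM. Adra1a, of the Gq-coupled class through which noradrenaline raises calcium in astrocytes, had 6.601, 8.204 and 8.02 TPM, and Adra1b had 3.67, 5.61 and 8.72 TPM. Of 23 receptors for acetylcholine, dopamine, serotonin and histamine, only Hrh1, the H1 histamine receptor, was at 10 TPM or more in every library, with 18.5, 33.1 and 53.8 TPM, and 12 were under 1 TPM in all 3. Htr2c, a serotonin receptor known from choroid plexus, had 0.975, 9.94 and 8.91 TPM and was lowest in mouse 296. The summed choroid plexus markers, of which Ttr made up 97.6% by TPM, were also lowest in that mouse. That cell type's part in the Htr2c level was not tested. Drd4 was listed at 0.

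Of 30 receptors for peptides and lipids, 4 were at 100 TPM or more in every library and 11 were under 1 TPM in all 3. Ntsr2, a neurotensin receptor typical of astrocytes, had 938, 1520.2 and 2049 TPM (count share 0.50), on 5265, 8799 and 12474 counts, and Ntsr1 had 0.563, 1.296 and 0.779 TPM. S1pr1, a receptor of sphingosine 1-phosphate, had 464, 741 and 1093 TPM and was 9.005, 15.4 and 34.7 times S1pr3. Adcyap1r1, the PACAP receptor, had 107, 196 and 257 TPM. Ednrb, an endothelin receptor, had 103, 141 and 176 TPM, 6.38, 7.24 and 12.4 times Ednra. Ntsr2, S1pr1, Adcyap1r1 and Ednrb were each lowest in mouse 296 and highest in mouse 474. The opioid receptors Oprm1, Oprd1 and Oprk1 were under 0.1 TPM in every library.

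Orphan receptors were led by Gpr37l1, a receptor of glia linked to prosaposin, with 1407, 2142 and 2953 TPM, on 11580, 18185 and 26358 counts. Gprc5b had 333, 492 and 505 TPM, and Adgrg1, the adhesion receptor GPR56, had 427, 333 and 378 TPM. Adgrb1, a receptor for apoptotic cells also called BAI1, had 228, 161 and 153 TPM.

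Fgfr3 was the leading growth factor receptor, with 939, 734 and 809 TPM, on 24389, 19664 and 22786 counts, 3.53, 5.01 and 5.34 times Fgfr1 and 9.64, 6.65 and 6.81 times Fgfr2. Ntrk2, the BDNF receptor that astrocytes make largely in a truncated form, had 359.7, 452 and 428 TPM, though gene totals do not tell the forms apart. Mertk and Axl, receptors for the uptake of synapses and debris, had 404, 332 and 376 TPM for Mertk and 126, 109 and 118 TPM for Axl. Ptch1, the receptor of hedgehog, had 86.3, 143 and 136 TPM, and Notch1 had 91.4, 79.7 and 74.4 TPM. Among cytokine receptors Cntfr, for ciliary neurotrophic factor, had 261, 265 and 386 TPM, Tnfrsf1a had 201, 148 and 125 TPM, and Il6st, the shared subunit gp130, had 74.9, 85.8 and 64.97 TPM. The lipoprotein receptor Lrp1 had 208, 208 and 183 TPM, and the lysosomal Scarb2 had 229, 257 and 234 TPM.

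**Figure D3:**
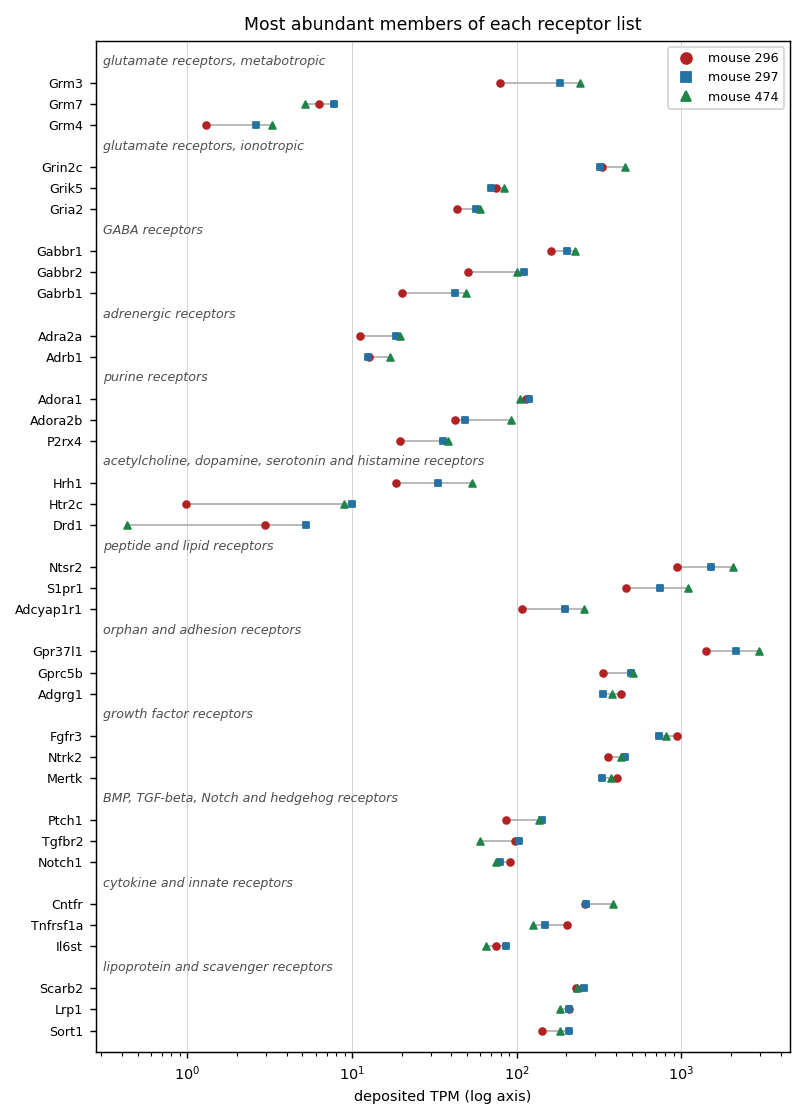
TPM on a log axis of up to 3 members with the highest mean in each receptor list, a few of which are not shown, with 1 point per library (circle, mouse 296; square, mouse 297; triangle, mouse 474). Ntsr2, Gpr37l1, S1pr1 and Fgfr3 reached 464 TPM or more in every library, the adrenergic Adra2a and Adrb1 lay at 11.2 to 19.7 TPM, and Grm3, S1pr1 and Adcyap1r1 were lowest in mouse 296.

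All 50 chosen astrocyte transcription factors were at 1 TPM or more in every library and 13 at 100 TPM or more. Of all 48709 genes, 14400 reached 1 TPM in every library. The Id genes, inhibitors of basic helix-loop-helix factors downstream of BMP, were prominent, with Id2 at 759.5, 454 and 571 TPM (count share 0.52), Id1 at 346, 294 and 271 TPM, Id3 at 301, 241 and 270.2 TPM and Id4 at 211, 217 and 238 TPM (count share 0.43). Tsc22d3, a glucocorticoid-induced leucine zipper protein, had 459, 315 and 308 TPM, and the Kruppel-like factors Klf9 and Klf15, also targets of glucocorticoids, had 358, 209 and 159 TPM for Klf9 and 289.8, 207 and 192 TPM for Klf15. Mouse 296 was highest for Id1, Id2, Id3, Tsc22d3, Klf9 and Klf15. Among all 50 factors, however, the highest value fell in mouse 296 for 17, in mouse 297 for 10 and in mouse 474 for 23. For the 14400 genes at 1 TPM or more these shares were 39.4, 36.6 and 24%. Zfp36l1, which binds AU-rich RNA, had 232, 262 and 182 TPM.

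Within the Sox family Sox9, a factor needed for astrocyte fate, had 162, 144 and 139 TPM, Sox8 had 150.5, 159 and 169.8 TPM, and Sox21 had 27.1, 30.04 and 51.4 TPM. Sox2, of neural stem cells and astrocytes, had 146, 131 and 173 TPM (count share 0) and 0, 0 and 0 counts, so its level rests on the TPM alone. Of the nuclear factor I family Nfix had 97.1, 129.8 and 100.2 TPM and Nfic 87.9, 81.2 and 67.3 TPM, above Nfia at 25.2, 30.2 and 34.4 TPM and Nfib at 24.9, 25.5 and 27.5 TPM in every mouse. Hes5, a target of Notch, had 70.8, 65.5 and 223 TPM, on 350, 334 and 1195 counts and stood out in mouse 474.

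Of 32 nuclear hormone receptors 18 were at 10 TPM or more in every library. Nr4a1, an immediate early gene, had 382, 367 and 226 TPM, and Nr1d1, the clock repressor REV-ERB alpha, had 254, 319 and 397 TPM. Thra, a thyroid hormone receptor, had 271, 234 and 199 TPM, 34.1, 22.97 and 16.01 times Thrb. The glucocorticoid receptor Nr3c1 had 48.01, 53.2 and 53.7 TPM and the mineralocorticoid receptor Nr3c2 had 14.6, 15.6 and 14.5 TPM. Hnf4a, a liver factor, was listed at 0. Clock genes were all at 10 TPM or more in every library. Per1 had 264, 155 and 117 TPM, Tef 249, 128 and 124 TPM, Bhlhe40 219, 142 and 156 TPM and Dbp 73.96, 94.8 and 167 TPM. Per1 and Tef were highest in mouse 296, and Nr1d1 and Dbp in mouse 474. The labels give no time of day.

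Secreted factors took 2.07, 2.22 and 2.31% of TPM, with Ptgds, Sparcl1 and Cpe in front. Sparc, a matrix protein, had 1245, 1323 and 1115 TPM, and Scg3, a granin, had 847, 872 and 1136 TPM. Agt, angiotensinogen, had 1452, 1260.4 and 1049 TPM, and Mfge8, a bridge between dying cells and phagocytes, had 524, 814 and 1506 TPM, Agt being highest in mouse 296 and Mfge8 in mouse 474. Among growth factors Ptn, pleiotrophin, had 359, 392 and 543 TPM, and Vegfa had 185, 226 and 358 TPM. In the Wnt7 pair, which acts on brain endothelium, Wnt7b had 66.97, 69.8 and 105 TPM and Wnt7a had 11.2, 37.3 and 85.98 TPM. Wnt7b was the higher in every mouse by TPM, and Wnt7a spanned the wider range. The neurotrophin Bdnf was at 0.3104, 0.301 and 0.4497 TPM, and the growth factor Igf1 at 0.585, 0.135 and 0.1796 TPM.

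Genes that mark regions of the brain were also read. The forebrain factors Lhx2 and Emx2 had 55.4, 52.7 and 84.1 TPM for Lhx2 and 21.6, 20.9 and 31.4 TPM for Emx2. Irx3 and Irx2, expressed in more caudal brain, had 28.6, 16.7 and 11.9 TPM for Irx3 and 15.4, 10.7 and 10.1 TPM for Irx2, both highest in mouse 296. Hoxa5, Hoxb5 and Hoxc4, of hindbrain and spinal cord, were listed at 0 in every library. By TPM, Mfge8 made up 85.5% of the forebrain list, and Agt 96.4% of the list for diencephalon, brainstem and spinal cord. All 6 genes listed for Bergmann glia, of the cerebellum, were at 1 TPM or more in every library, led by A2m with a mean of 157 TPM. The brain regions that the cells came from were not tested.

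Genes that dissociation itself is known to induce within minutes were strongly represented. All 19 on the list were at 1 TPM or more, 16 of them at 100 TPM or more, and they took 0.963, 0.841 and 0.535% of TPM. Fos had 2001, 1879 and 1159 TPM, on 17071, 16533 and 10724 counts, Jund 841, 665 and 463 TPM, Dusp1, a phosphatase of MAP kinases, 754, 576 and 406 TPM, and Junb 714, 580.2 and 342 TPM. Egr1 had 519, 394 and 242 TPM. Mouse 296 held the highest value for 15 of the 19 genes, mouse 297 for 4 and mouse 474 for 0. Over all 14400 genes at 1 TPM or more these shares were 39.4, 36.6 and 24%. The labels do not separate what the cells expressed in the brain from what they expressed during dissociation.

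The heat shock genes Hspa1a and Hspa1b had 400.1, 236 and 174 TPM (count share 0.44), on 1906, 1146 and 937 counts, and 381, 236 and 221 TPM (count share 0.44), on 1704, 1066 and 1086 counts. Their promoters in RefSeq (GRCm38.p6, mm10) at chr17:34972107-34972406 and chr17:34959189-34959488, both on the minus strand, are shown to compare the windows of the pair. How reads were divided between these genes was not tested, so the level of each is uncertain. Capitals mark the heat shock element core GAANNTTC, which reads the same on both strands.
Hspa1a: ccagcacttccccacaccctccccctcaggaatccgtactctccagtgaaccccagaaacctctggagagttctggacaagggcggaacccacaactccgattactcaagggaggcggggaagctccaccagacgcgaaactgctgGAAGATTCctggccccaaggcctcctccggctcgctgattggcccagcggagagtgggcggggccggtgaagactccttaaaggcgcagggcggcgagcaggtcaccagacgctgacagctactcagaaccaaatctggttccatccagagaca
Hspa1b: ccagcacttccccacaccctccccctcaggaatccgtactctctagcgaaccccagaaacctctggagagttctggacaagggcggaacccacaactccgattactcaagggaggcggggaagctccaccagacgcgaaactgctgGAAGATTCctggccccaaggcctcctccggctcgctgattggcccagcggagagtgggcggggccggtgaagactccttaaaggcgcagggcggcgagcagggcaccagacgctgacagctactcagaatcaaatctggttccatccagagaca
The windows were identical at 296 of 300 bases, and the core matched 1 time in each, against at least 1 match in 7.86% of 32851 promoters. Both genes were highest in mouse 296, and the ratio between them was 0.947 ± 0.1404.

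Of 20 genes of reactive astrocytes, 5 were at 100 TPM or more in every library, and the list took 0.679, 0.568 and 0.332% of TPM. Serpina3n, a protease inhibitor, had 2331, 1794 and 712 TPM, on 17451, 13852 and 5780 counts, and Vim, vimentin, had 1665, 1714 and 1071 TPM (count share 0.49), on 14197, 15073 and 9906 counts. Lcn2, lipocalin 2, had 377, 38.01 and 10.9 TPM, on 3588, 373 and 112 counts, Timp1, an inhibitor of matrix proteases, had 319, 14.7 and 5.72 TPM, on 1028, 49 and 20 counts, and the chemokine Cxcl10 had 227, 7.98 and 6.95 TPM, on 1322, 48 and 44 counts. Mouse 474 was lowest for all 5 of these, Lcn2, Timp1 and Cxcl10 were far above in mouse 296 alone, and Serpina3n and Vim were high in mice 296 and 297. Complement C3 ran otherwise, at 18.3, 145 and 102 TPM, lowest in mouse 296. The 10 neutrophil markers, none of them on this list, took 0.0212, 0.00109 and 0.000543% of TPM in the same libraries, and their part in the levels of Lcn2, Timp1 and Cxcl10 was not tested. H2-D1, of antigen presentation, had 325, 249 and 222 TPM.

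Markers of other cells were then summed. The 15 oligodendrocyte markers took 1.44, 1.73 and 1.66% of TPM (1.61 ± 0.151%) and 2.04, 2.18 and 2.26% of counts, and 10 of the 15 were at 100 TPM or more in every library. Mal, a myelin proteolipid, had 2207, 2336 and 2084 TPM, on 22242, 24285 and 22773 counts. Mbp, myelin basic protein, had 1871, 1466 and 1766 TPM, and Trf, transferrin, had 1169.5, 1926 and 2013 TPM. The members did not vary alike, since Ugt8a, which makes myelin lipids, had 19.9, 96.9 and 103 TPM and was lowest in mouse 296, while Mbp was highest there. The oligodendrocyte factors Olig1, Myrf, Sox10 and Nkx6-2 had 408, 448 and 478 TPM for Olig1, 181, 235 and 189.7 TPM for Myrf, 86.2, 206 and 218 TPM for Sox10 and 112, 165 and 159.7 TPM for Nkx6-2. The precursor markers Pdgfra and Cspg4 had 6.82, 2.96 and 2.105 TPM for Pdgfra and 13.2, 18.6 and 14.8 TPM for Cspg4. The share of any abundant gene that oligodendrocytes also express was not tested.

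Choroid plexus markers took 1.04, 1.62 and 1.89% of TPM and 0.398, 0.619 and 0.754% of counts, and 97.6% of the TPM was Ttr. The next, Clic6, an intracellular chloride channel, had 59.7, 122 and 93.9 TPM, the folate receptor Folr1 had 49.2, 80.9 and 72.9 TPM, and Kcnj13, a potassium channel of the plexus, had 21.9, 97.4 and 122 TPM. Ttr stood at 206, 194 and 253 times Folr1. Ttr and these 3 genes were lowest in mouse 296. Aqp1, also among the 8 markers, did not follow and was nearly level. Its mean of 41.7 TPM was 41.7, 42.2 and 41.3 TPM without mouse 296, 297 and 474. The part of plexus RNA in the Ttr level was not tested. Ependymal markers, of the ciliated cells that line the ventricles, took 0.124, 0.262 and 0.1803% of TPM and 0.0636, 0.129 and 0.0848% of counts, with Foxj1, the master factor of motile cilia, at 329.9, 503 and 328 TPM and Ccdc153, a ciliary protein, at 163, 664 and 445 TPM (count share 0.54). All 8 ependymal genes were highest in mouse 297, against 36.6% of all 14400 genes at 1 TPM or more.

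Endothelial markers took 0.219 ± 0.0474% of TPM, and Ly6c1 and Cldn5, claudin 5 of the blood-brain barrier, had 748, 737 and 486 TPM for Ly6c1 and 469, 553 and 377 TPM for Cldn5. Pericyte and smooth muscle markers took 0.139 ± 0.00823%, led by Vtn, vitronectin, with 430.1, 287 and 368 TPM and Acta2, smooth muscle actin, with 263, 384 and 318 TPM. Fibroblast markers took 0.0387 ± 0.00825%, of which Igfbp2, an insulin-like growth factor binding protein, made up 76.8% with 235, 244 and 412 TPM. Haemoglobin and other red cell genes took 0.0756, 0.115 and 0.0921% of TPM and 0.0139, 0.0207 and 0.01803% of counts, with Hbb-bs at 311, 467 and 369 TPM.

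Among immune markers those of microglia had the highest summed level. The 12 microglial markers took 0.133, 0.108 and 0.0867% of TPM and 0.07198, 0.0641 and 0.0539% of counts, with the complement gene C1qb at 299, 212 and 162 TPM and the receptor Cx3cr1 at 20.2, 61.996 and 43.8 TPM. Macrophage and monocyte markers took 0.00603 ± 0.000596%, and 0 of 10 reached 100 TPM. Neutrophil markers took 0.0212, 0.00109 and 0.000543% of TPM and 0.00425, 0.000207 and 9.59e-05% of counts. All 10 were highest in mouse 296, against 39.4% of the 14400 genes at 1 TPM or more in every library. Only 1 of the 10 was itself at 1 TPM or more in every library, and 4 were under 1 TPM in all 3. The share over all genes is therefore of an unlike set, and the order of the lowest members rests on few reads. Without mouse 296 the mean neutrophil share of TPM was 0.000814%, against 0.00762% over the 3 libraries. S100a9, a calcium-binding protein of neutrophils, had 124, 7.17 and 3.895 TPM, on 234, 14 and 8 counts, and its partner S100a8 had 36.5, 0.7702 and 0.366 TPM, on 92, 2 and 1 counts. The granule genes Elane and Mpo stayed at 0.2996, 0.291 and 0 TPM for Elane and 0.483, 0 and 0 TPM for Mpo. Of 10 lymphocyte markers 0 reached 1 TPM in all libraries, and Cd3d was listed at 0.

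Neuronal markers took 0.0485, 0.0229 and 0.0217% of TPM and 0.0148, 0.00966 and 0.00983% of counts, and Tubb3, neuronal tubulin, made up 84.4% of the TPM with 429, 185 and 172 TPM (count share 0.18) on 523, 258 and 201 counts. The vesicular glutamate transporters Slc17a7 and Slc17a6 had 7.099, 0.7496 and 1.81 TPM for Slc17a7 and 0.4595, 0.297 and 0.141 TPM for Slc17a6, and the synaptic gene Snap25 had 3.37, 3.31 and 3.71 TPM. After Tubb3, Syp and Camk2a were the highest, at 14.1, 13.4 and 18.6 TPM for Syp and 16.95, 6.59 and 5.79 TPM for Camk2a. Genes of proliferating cells and neuroblasts took 0.00172 ± 0.0001999%, with Mki67, a marker of dividing cells, at 1.86, 2.98 and 1.44 TPM and Dcx, of migrating neuroblasts, at 0.262, 0.402 and 0.201 TPM.

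**Figure D4:**
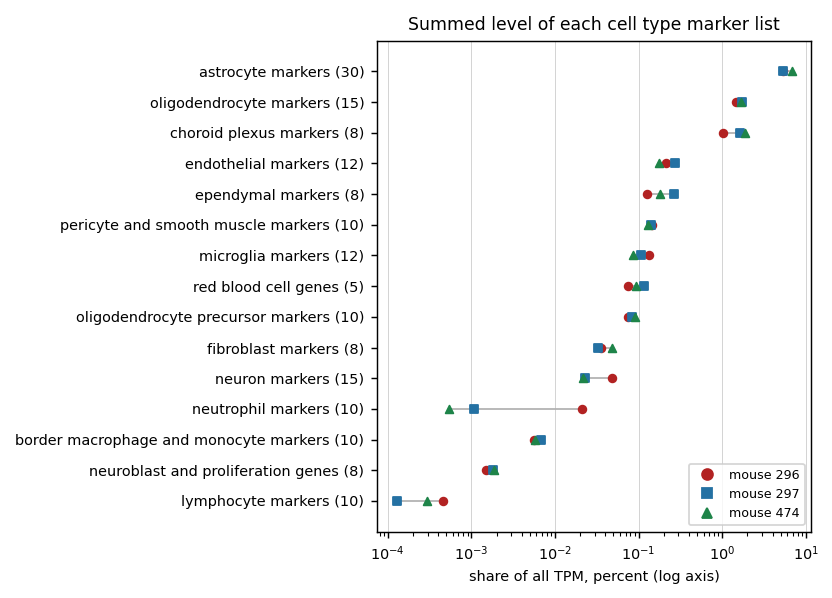
Summed TPM of each cell type marker list as a percent of all TPM on a log axis, with the number of genes in brackets and 1 point per library (circle, mouse 296; square, mouse 297; triangle, mouse 474). Astrocyte markers lie at 5.28 to 6.76%, oligodendrocyte and choroid plexus markers at 1.04 to 1.89%, and neutrophil markers reach 0.0212% in mouse 296 only.

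Genes that set 1 mouse apart were counted among those at 10 TPM or more in that mouse. In mouse 296, 82 of 10521 genes (0.779%) were at least 4-fold above both other libraries, in mouse 297 it was 4 of 10831 (0.0369%) and in mouse 474 it was 2 of 10383 (0.0193%). At 2-fold the counts were 334 (3.17%), 115 (1.06%) and 23 (0.222%). With CPM in place of TPM, 64, 2 and 0 genes were 4-fold apart. These counts take in predicted gene models with Gm or Rik symbols, which made up 12 of the 82 genes in mouse 296, 3 of the 4 in mouse 297 and both of those in mouse 474. The genes named next leave such models out, along with ribosomal protein and mitochondrial genes. Besides the Y-linked Eif2s3y, Ddx3y and Kdm5d, the 10 genes furthest apart in mouse 296 included S100a8, Retnlg, Cxcl10 and Gucy2c. Retnlg, a resistin-like gene of neutrophils, had 35.8, 1.32 and 0.836 TPM, and Gucy2c, a guanylate cyclase receptor, had 15.1, 0.0675 and 0.257 TPM. Beside the Y-linked genes, those with the largest ratio in mouse 296 to the other libraries thus include neutrophil genes and a chemokine.

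In mouse 297 the 10 genes furthest apart were low, the highest being Ccdc187 at 12.2, 37.3 and 11.4 TPM (count share 0.33), Dthd1 at 6.93, 22.2 and 7.12 TPM and Fbxl13 at 1.18, 20.6 and 4.22 TPM. The ciliary gene Hydin, an ependymal marker, was also highest there, at 12.5, 46.7 and 15.5 TPM, and the ependymal list was at its highest share in the same library. In mouse 474 Hes5, Wnt7a and Lars2 were among the first 10, with Nat8f3 at 14.3, 24.3 and 59.9 TPM (count share 0.38) and Cox7a1, a subunit of cytochrome oxidase, at 5.67, 7.99 and 17.6 TPM. The part of other cell types in these differences between mice was not tested.

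**Figure D5:**
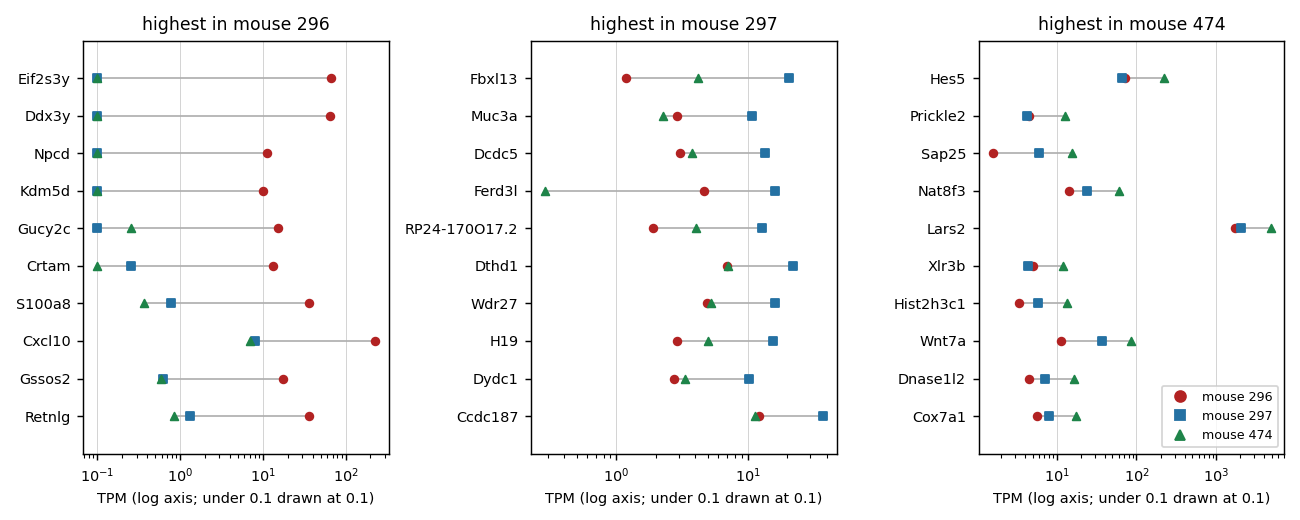
TPM on a log axis (values under 0.1 are drawn at 0.1) of the 10 genes with the largest ratio of 1 library to the higher of the other two, with predicted gene models (Gm and Rik symbols), ribosomal protein and mitochondrial genes left out, in 3 panels for mouse 296, mouse 297 and mouse 474. Among these genes the ratio in mouse 296 was 27.2 or more where the other two had a value above 0, in mouse 297 it was 3.05 to 4.88 and in mouse 474 2.20 to 3.15.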

How the data were processed

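RNA of ACSA-2+ cells was sequenced on an Illumina HiSeq 2500, per the labels' protocols, and each library has its own deposited table of 48709 genes. The authors deposited whole-number counts of reads per gene, TPM and RPKM in each table, per the file headers. Per the submitters' processing notes the build was mm10. No aligner, counting tool or strand setting is stated in the sources used here. The count share was computed from the counts, the TPM and exon lengths from GENCODE M21, and the deposited RPKM were only set against the TPM of the same library.

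Levels, sums over lists and ratios were computed from the deposited TPM with pandas 2.3.3 in Python 3.11.15, with SDs over 3 libraries and no statistical test, since 1 group is described. The thresholds were 1 TPM for a gene to be called present, 10 TPM for genes that set a mouse apart and a pseudocount of 1 for log2 values. The labels give each library its own mouse number. For each pair of libraries the chi-squared of the counts was 24.4 to 61.9 per degree of freedom, far from the 1 that repeats of a library would give, so all 3 were kept as samples.

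The 52 gene lists, with 900 distinct genes, and the rule for naming genes were chosen with earlier results of these data known. Named are the 30 nuclear genes with the highest mean TPM, up to 8 leading members of each list with those under 0.1 TPM, other members of a family where its order is given, and per mouse the 10 genes furthest above the other two, leaving out gene models with Gm or Rik symbols. Slc12a5, Gys1, Gys2, Pparg, Vegfa, Bdnf, Igf1, C3, Ugt8a and Mpo fall outside that rule and were chosen after their values were seen. Gad2, Slc17a6 and P2ry1, among others, are also not leading members of their lists and were named beside related genes. Some genes that the rule names, the level of the floxed gene and a planned value that needs one of these genes are not reported here.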

Additional observations from a re-analysis of the deposited data

How the results depend on the processing

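No paired analysis was possible because a single group of 3 libraries was described and nothing was compared between groups. The share of TPM in the 25 most abundant genes, 15.9%, was 7.21% when taken from counts and 11.0% with mitochondrial transcripts left out. The astrocyte marker share of 5.81% was 4.91% without Apoe. The oligodendrocyte share of 1.61% was 2.16% from counts, and the planned version without a member was left out. With each mouse left out in turn, the top 25 share ranged from 15.4% to 16.3%, the astrocyte share from 5.33% to 6.07%, the oligodendrocyte share from 1.55% to 1.70%, the number of genes at 1 TPM or more in the remaining libraries from 14526 to 14823, and the median SD on the log2 scale from 0.17 to 0.25. The number of genes present was 17300 above 0 TPM, 11643 at 5 TPM and 14174 at 10 counts. Taken from counts, the mean share was 0.590% in place of 1.51% for choroid plexus markers, 0.0926% in place of 0.189% for ependymal markers, 0.0634% in place of 0.109% for microglia markers, 0.0114% in place of 0.0310% for neuron markers, 0.0176% in place of 0.0944% for red blood cell genes, 0.00152% in place of 0.00762% for neutrophil markers and 0.00297% in place of 0.00172% for neuroblast and proliferation genes. Leaving out each mouse for the other cell type lists, and 2-fold and CPM versions of the genes that set a mouse apart, were chosen after seeing the data. Levels of some single genes also depended on the processing. With TPM recomputed from counts and exon length, 407 of 971 gene means moved by the SD between libraries or more, and 564 did not. Part of this was a rise of like proportion in genes without a low count share. Apod was at 2993 in place of 2473 TPM and Agt at 1517 in place of 1254 TPM, and both counted as moved. Aldoc rose alike, to 3196 from 2637 TPM, but its SD was larger and it did not count. The 407 therefore also reflects small SDs and is no number of genes whose level changed relative to others. Beyond this rise, Aldoa was at 866 in place of 553 TPM, and Fth1 fell to 3924 in place of 13017 TPM. With 3 libraries the SD is itself imprecise, and values near 3 counts are limited by depth.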
